A study of Mus musculus with 8 samples.

Results

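The 7 genes of the AMP-activated protein kinase (AMPK) were followed in neurons that lack the related kinase NUAK1. They were chosen by name, as the genes that encode the catalytic α subunits (Prkaa1, Prkaa2), the scaffolding β subunits (Prkab1, Prkab2) and the nucleotide-sensing γ subunits (Prkag1, Prkag2, Prkag3), and all 7 were found among the 32726 Ensembl identifiers of the count table. Poly-A RNA was sequenced from 4 Nuak1 knockout (KO) and 4 wild type (WT) libraries of mouse neurons kept for 5 days in vitro. The cultures came from embryos of constitutive Nuak1 knockout mice, which lack the gene in every cell and die at birth, and of WT controls, on a C57Bl/6JRj background. The methods list as many animals per condition as there are libraries. The labels name the tissue as cortex or hippocampus, and the paper describes cortical neurons grown without serum. The labels do not say whether libraries came from separate cultures, so p-values measure the spread between these libraries. The strain label was BJ in KO1, KO2 and KO3, BK in KO4, WT2 and WT4, BO in WT1 and BQ in WT3, and is not explained. Lane A held KO1, KO4, WT1 and WT3, and lane B held KO2, KO3, WT2 and WT4.

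AMPK is a heterotrimer of 1 α, 1 β and 1 γ subunit that responds to a fall in cellular energy. AMP and ADP bind the γ subunit and favour phosphorylation of a threonine in the activation segment of the α subunit, chiefly by the kinase LKB1. The active enzyme shuts down ATP-consuming synthesis, such as that of fatty acids, and promotes catabolism and autophagy. NUAK1 belongs to the AMPK-related kinases, which LKB1 also activates, and the study asked whether its roles in axon branching and mitochondria were shared by AMPK. The question addressed here is whether transcripts of the AMPK subunits, or the balance of their isoforms, differed between genotypes.

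The α isoforms share the stretch that LKB1 phosphorylates, and its coding bases are shown because they show how far reads can tell the isoforms apart. The stretch runs from the DFG to the APE motif in GENCODE transcripts of the NCBIM37 build, on the coding strand, with the codon of the phosphorylated threonine in capitals.

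Prkaa1: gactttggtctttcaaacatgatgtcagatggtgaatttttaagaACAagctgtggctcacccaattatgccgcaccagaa

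Prkaa2: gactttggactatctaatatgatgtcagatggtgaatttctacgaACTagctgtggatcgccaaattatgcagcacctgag

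The threonine is codon 183 of the Prkaa1 model and codon 172 of the Prkaa2 model. The 81 bases differed at 13 positions, in 13 of 27 codons, and no codon differed in the residue it encodes. The longest run of bases shared by the pair in this stretch was 21. Over the whole coding sequences identity was 70.9% for the α pair, 73.4% for the β pair and 68.0% for Prkag1 and Prkag2, and the longest exact run shared by any pair was 35 bases, between Prkaa1 and Prkaa2. No transcript of the 7 genes matched another place in the NCBIM37 genome over at least 50 bases at 95% identity or more. On GRCm38, RefSeq places Prkaa1 at chr15:5143861-5181899, Prkaa2 at chr4:105029649-105109898, Prkab1 at chr5:116013586-116024503, Prkab2 at chr3:97658211-97673812, Prkag1 at chr15:98812797-98831508, Prkag2 at chr5:24862735-25106282 and Prkag3 at chr1:74738922-74749471.

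The 8 libraries held 31247078 to 67155004 counts. As a check of the labels, Nuak1 gave between 86 and 102 counts per KO library and between 1612 and 4598 per WT library (log2 fold change -4.90, SE 0.13), and its adjusted p was 1.38e-07 by the quasi-likelihood test of edgeR with Benjamini-Hochberg adjustment. KO1 and WT1 stood apart from the other 6 libraries on the surrogate variable, an estimate of unexplained variation that the fit included, with values of -0.56 and -0.62 against 0.05 to 0.38. Both are on lane A. Neuronal markers summed to between 4601 and 5480 CPM (counts scaled to a common library total) in all 8 libraries, and microglial markers to between 2.57 and 31.3 CPM. The ranges of all 8 marker lists overlapped between genotypes. In bulk RNA, fewer cells of a type cannot be told apart from less RNA per cell. Results are therefore given below with all libraries and, where stated, without KO1 and WT1.

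Of the 7 genes, 6 gave between 387 and 6714 counts in every library, and Prkag3 did not. Per length (RPKM, counts scaled by exon length and library total), the order of the median levels was Prkag2 at 17.2 (range 15.4 to 18.2), Prkag1 at 15.6 (14.0 to 17.0), Prkab2 at 15.4 (12.4 to 18.1), Prkaa2 at 8.82 (7.68 to 12.4), Prkaa1 at 7.96 (7.25 to 9.11) and Prkab1 at 6.41 (4.04 to 6.98). The ranges of Prkag2 and Prkag1, of Prkag1 and Prkab2, and of Prkaa2 and Prkaa1 overlapped. Prkag2 exceeded Prkag1 in 7 of 8 libraries, Prkag1 exceeded Prkab2 in 4 of 8 and Prkaa2 exceeded Prkaa1 in 7 of 8. Prkab2 exceeded Prkaa2, and Prkaa1 exceeded Prkab1, in all 8 libraries, with no overlap of the ranges. These levels depend on the length assigned to a gene. With the length of the longest coding transcript, an alternative chosen after the data were seen, the median of Prkag2 was 33.4 and that of Prkab1 was 9.41, so that Prkab1 moved above Prkaa2 and Prkaa1.

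**Figure D1:**
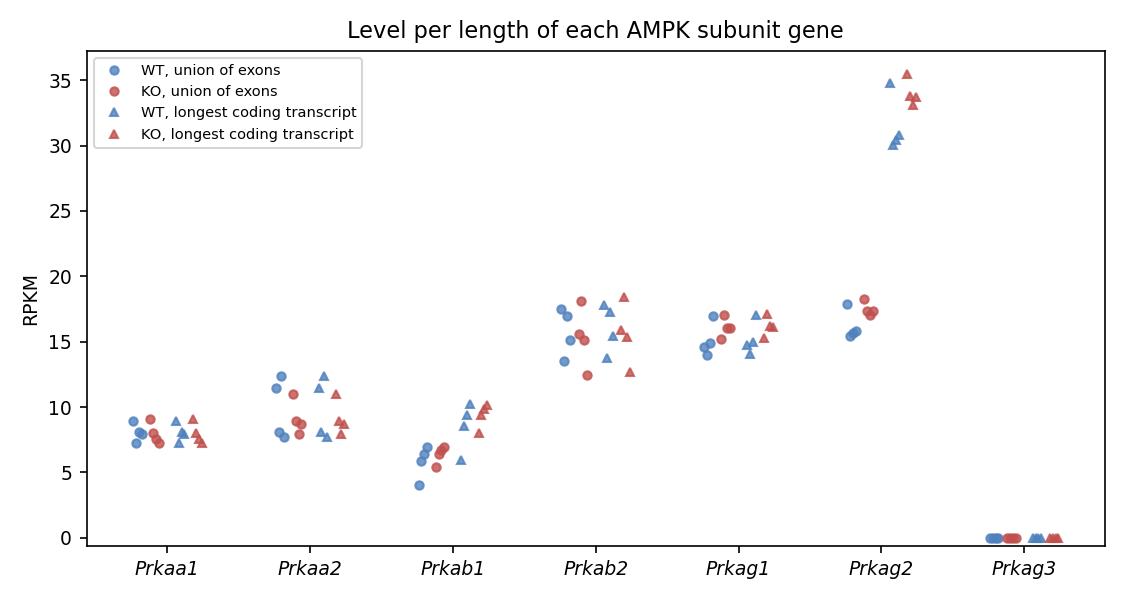
Level per length (RPKM, linear axis) of the 7 AMPK genes in each of the 8 libraries, WT in blue and KO in red, with circles for the union of exons and triangles for the longest coding transcript. Prkag2 and Prkab1 move with the length chosen, Prkaa1 and Prkaa2 do not, and Prkag3 lies at the bottom of the axis.

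Prkag3, the γ isoform best known from skeletal muscle, gave 1 count in KO4, 1 count in WT4 and none in the other 6 libraries. A count of 0 allows up to 3 counts, or 0.0447 to 0.096 CPM depending on the library. At 3 counts Prkag3 would make up 0.0489% to 0.0951% of the γ transcripts per length. It was too low to enter the test.

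The catalytic subunits showed no difference between genotypes that passed the test. Prkaa1 stood at 42.4, 37.3, 35.2 and 33.8 CPM in KO1 to KO4. In WT1 to WT4 it stood at 41.5, 33.7, 37.8 and 36.8 CPM. The highest library of each genotype was replicate 1, and the groups overlapped throughout. The mean was 37.2 ± 3.75 CPM in KO and 37.5 ± 3.22 in WT (SD, n = 4 each). The log2 fold change of KO against WT was -0.06 (SE 0.061, 95% interval -0.19 to 0.08), with an adjusted p of 0.772 in edgeR. Expressed as a fold, the interval ran from 0.875 to 1.06.

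Prkaa2, which encodes the other catalytic isoform, varied widely among the WT libraries. It stood at 87.8, 71.2, 63.3 and 69.4 CPM in KO1 to KO4. In WT1 to WT4 it stood at 91.5, 64.4, 98.7 and 61.2 CPM. WT1 and WT3 were the highest libraries and WT4 the lowest, so the KO values all lay within the WT range. The log2 fold change was -0.16 (SE 0.159, 95% interval -0.53 to 0.20, adjusted p = 0.741 in edgeR). Its sign was not stable. Without WT3 the value was 0.03, and with all 8 libraries and 2 surrogate variables it was 0.0084. The RefSeq gene Gm36893 overlaps the Prkaa2 locus, and whether any of its reads entered the Prkaa2 count was not tested. Among the libraries WT3 also had the lowest summed level of astrocyte and radial glia markers (577 CPM against 623 to 1252 in the others) and of dividing progenitor markers (101 CPM against 177 to 302). WT1 and KO1, the next highest in Prkaa2, had the highest progenitor sums (242 and 302 CPM) and glial sums of 992 and 1020 CPM. The part of these markers in the Prkaa2 value was not tested.

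The estimates of the scaffold subunits had opposite signs, and neither passed the test. Prkab1 stood at 16.7, 19.7, 20.6 and 21.3 CPM in KO1 to KO4. In WT1 to WT4 it stood at 12.4, 17.9, 19.6 and 21.4 CPM. Replicate 1 was the lowest library of both genotypes, which is the reverse of Prkaa1. The log2 fold change was 0.13 (SE 0.0876, 95% interval -0.07 to 0.32, adjusted p = 0.630 in edgeR). Without KO1 and WT1, in a fit that also had no surrogate variable, it was 0.03, and without the surrogate variable alone it was 0.10. Leaving out WT4 instead gave 0.20 with an unadjusted p of 0.0414 in edgeR, the only unadjusted p under 0.05 among the 6 genes in the 21 alternatives, and its adjusted p of 0.362 was the lowest of that gene's alternatives, which ran up to 0.999957.

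Prkab2, the β isoform with the higher level per length, stood at 79.6, 92.4, 76.9 and 63.4 CPM in KO1 to KO4. In WT1 to WT4 it stood at 89.0, 69.0, 86.6 and 77.3 CPM. KO libraries were both the highest and the lowest of the 8. The log2 fold change was -0.09 (SE 0.103, 95% interval -0.32 to 0.15, adjusted p = 0.801 in edgeR). It was -0.17 without KO2 and -0.014 without KO4, the libraries with the highest and the lowest level.

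The estimates of the γ subunits were both above 0, and neither passed the test. Prkag1 stood at 25.004, 28.04, 26.5 and 26.4 CPM in KO1 to KO4. In WT1 to WT4 it stood at 24.1, 23.1, 24.6 and 27.9 CPM. All 4 KO values exceeded 3 of the 4 WT values, and WT4 lay within the KO range. The log2 fold change was 0.05 (SE 0.0697, 95% interval -0.10 to 0.21, adjusted p = 0.813 in edgeR).

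Prkag2, the γ isoform with the higher median level per length, stood at 118, 113, 110.3 and 112 CPM in KO1 to KO4. In WT1 to WT4 it stood at 116, 99.98, 101 and 103 CPM. All KO libraries lay above WT2, WT3 and WT4, and the genotypes overlapped through WT1 alone. The log2 fold change was 0.07 (SE 0.0541, 95% interval -0.05 to 0.19, adjusted p = 0.655 in edgeR), and 0.11 without KO1, WT1 and the surrogate variable, with an adjusted p of 0.980 that lay within the 0.507 to 0.999957 of all its alternatives. RefSeq places 6 other genes over the Prkag2 locus, among them the antisense gene Prkag2os1, and the use of strand in counting was not stated. Whether their exons share bases with those of Prkag2, and so whether any of their reads entered its count, was not tested.

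**Figure D2:**
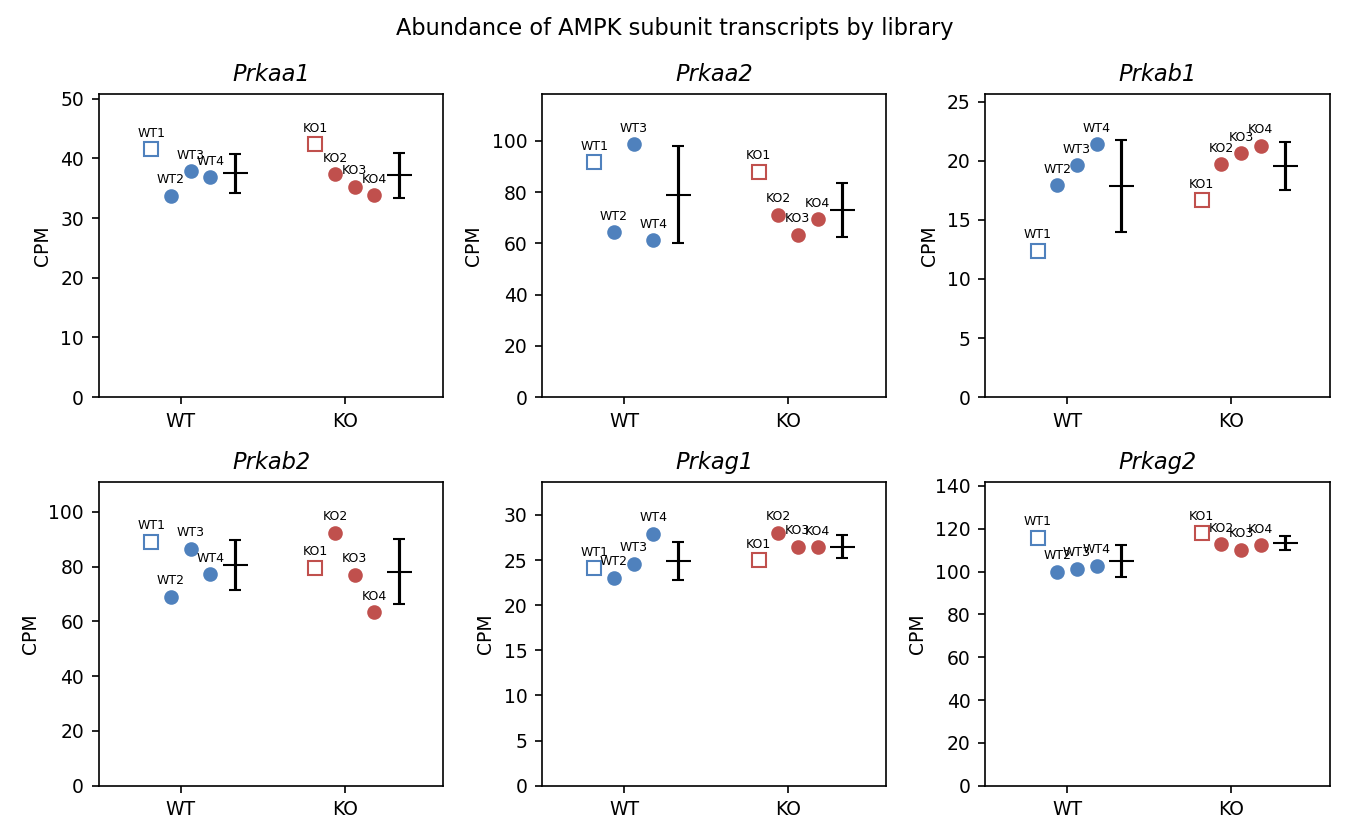
Abundance in CPM (linear axes from 0) of the 6 detected AMPK genes in each library, with open squares for KO1 and WT1, and the mean and SD (n = 4) beside each group. The genotypes overlap for every gene, and for Prkag2 only WT1 reaches the KO values.

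None of the 6 tested genes passed an adjusted p under 0.05, where 0.0492% of all 16272 tested genes did (8 genes, 0.0123% higher and 0.0369% lower in KO). None reached an unadjusted p under 0.05 either, against 10.5% of all genes, and none had genotypes that did not overlap in CPM, against 2.4%. With DESeq2 and with limma-voom 0 of the 6 passed, also at an unadjusted p under 0.05. The estimates split into 3 above and 3 below 0, whereas 53.4% of all genes lay above 0. All 6 had an absolute log2 fold change under 0.25, a property of 81.1% of all tested genes, so their small estimates did not set them apart from other genes. The widest 95% interval, that of Prkaa2, spanned folds of 0.694 to 1.15, and the narrowest, that of Prkag2, spanned 0.967 to 1.14.

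Lane was balanced between genotypes, and the estimates differed between lanes for 3 of the 6 genes in sign. These fits had no surrogate variable, so they changed the model as well as the libraries. On lane A (KO1, KO4, WT1 and WT3) the log2 fold changes were -0.08 for Prkaa1, -0.30 for Prkaa2, 0.23 for Prkab1, -0.32 for Prkab2, 0.06 for Prkag1 and 0.06 for Prkag2. On lane B they were -0.02, 0.03, -0.02, 0.15, 0.04 and 0.07 in the same order. Prkaa1, Prkag1 and Prkag2 kept their sign and Prkaa2, Prkab1 and Prkab2 did not. Without the surrogate variable on all 8 libraries the values were -0.05, -0.15, 0.10, -0.08, 0.05 and 0.07, and with KO1 and WT1 left out as well they were -0.06, -0.17, 0.03, -0.04, 0.07 and 0.11, each with the sign it had in the reported fit. Each lane held 2 libraries per genotype, and the difference between lanes was not tested. Strain label and genotype cannot be told apart for KO1, KO2, KO3, WT1 and WT3, since only BK held both genotypes.

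**Figure D3:**
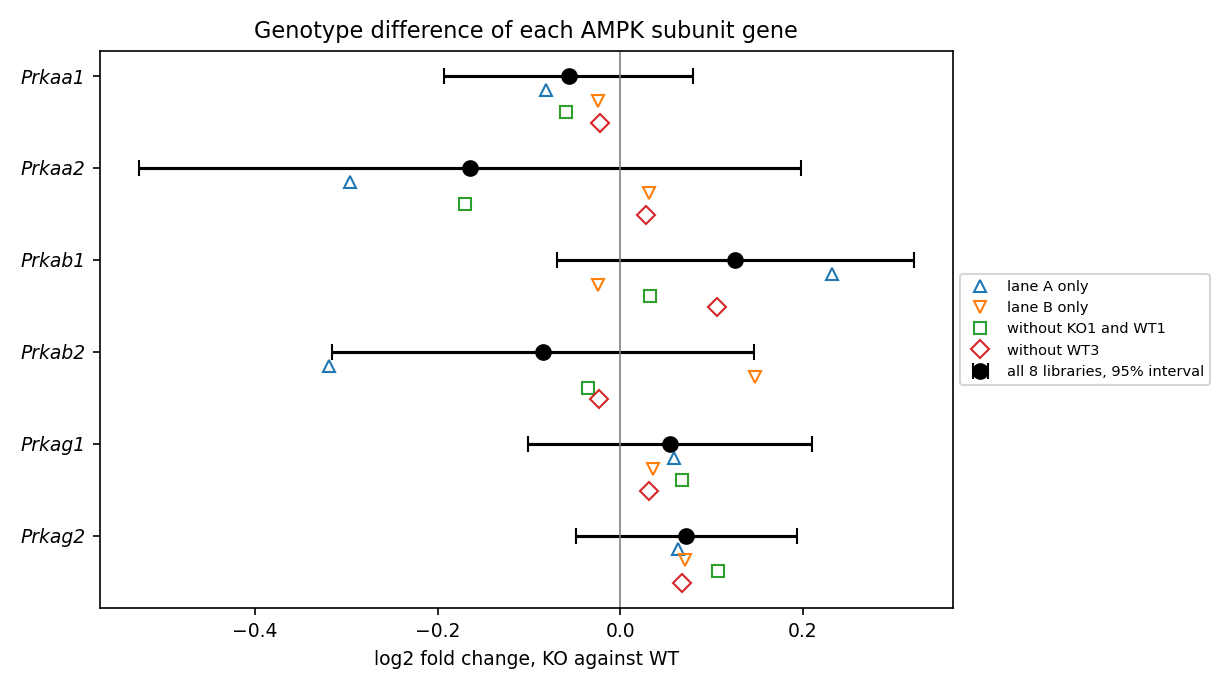
Log2 fold change of KO against WT for the 6 tested genes, with filled circles and 95% intervals for all 8 libraries and open symbols for lane A, lane B, without KO1 and WT1 (these 3 without the surrogate variable), and without WT3. Every interval spans 0, and the lane values of Prkaa2, Prkab1 and Prkab2 lie on both sides of 0.

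The balance of isoforms within a subunit did not differ between genotypes beyond the spread of libraries. Prkaa1 made up 46.7% ± 1.65 of the α transcripts per length in KO and 45.3% ± 4.76 in WT (SD, n = 4 each), with Prkaa2 making up the rest. Prkab1 made up 29.6% ± 4.69 of the β transcripts in KO and 27.0% ± 5.72 in WT, and Prkag1 made up 47.9% ± 1.74 of the γ transcripts in KO and 48.3% ± 2.76 in WT. At this length the β pair was the least even, with a share of Prkab1 from 18.8% in WT1 to 35.8% in KO4. The shares of β and γ depend on the length. With the longest coding transcript the mean share over all 8 libraries was 36.2% for Prkab1, against 28.3% with the union of exons, and 32.4% for Prkag1, against 48.1%, so the order of β and γ turned.

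The difference between genotypes in an isoform ratio does not depend on length. The log2 ratio of Prkaa1 to Prkaa2 differed by 0.08 between KO and WT (97.1% interval -0.32 to 0.54, exact two-sided permutation p = 0.657). The ratio of Prkab1 to Prkab2 differed by 0.20 (interval -0.40 to 1.27, exact p = 0.6). The ratio of Prkag1 to Prkag2 differed by -0.02 (interval -0.36 to 0.26, exact p = 0.886). The adjusted p over these 3 exact tests was 0.886 for each, and the smallest p that 4 against 4 libraries allow is 0.0286. The sign of each turned with single libraries. The α difference was -0.031 without WT3, the β difference -0.012 without WT1, and the γ difference 0.025 without KO1 and 0.043 without WT4. On lane B the α and β differences were -0.056 and -0.17. The intervals are wide, and a difference in the β ratio of up to 1.27 on the log2 scale could not be separated from none.

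**Figure D4:**
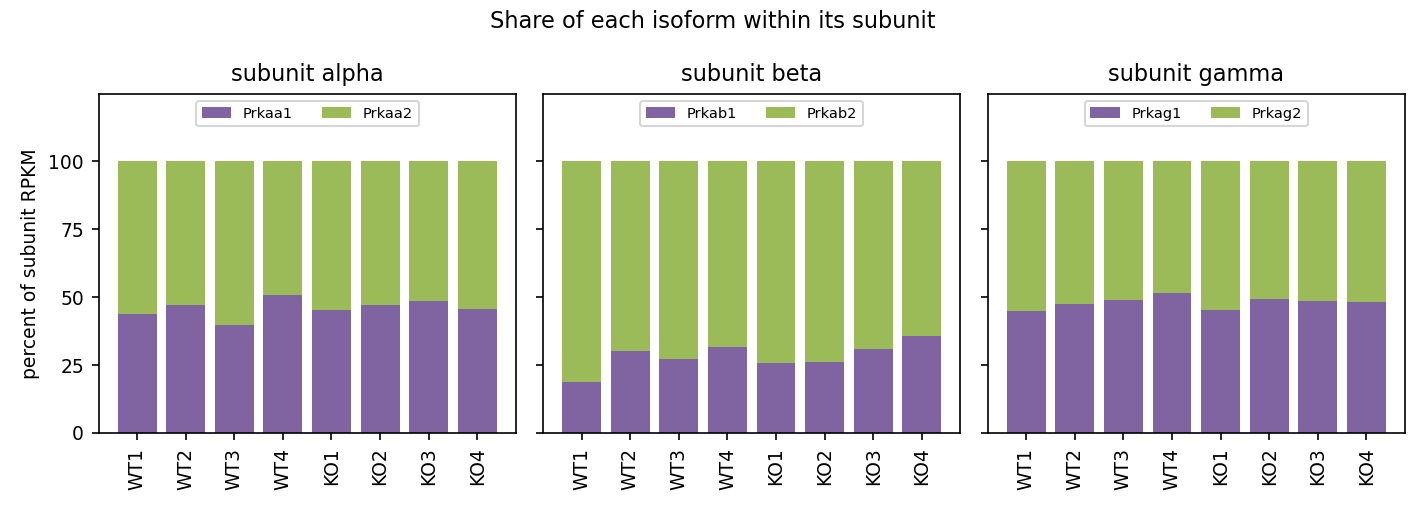
Share of each isoform in the RPKM of its subunit (percent, stacked bars from 0) in the 4 WT and 4 KO libraries, with Prkag3 at under 0.03% not drawn. The share of Prkab1 ranges from 18.8% to 35.8%, while those of Prkaa1 (39.6% to 50.7%) and Prkag1 (45.0% to 51.7%) lie nearer to an even split at this length.

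Summed over the isoforms, the γ subunits were the most abundant per length. The γ sum was 33.4, 34.4, 33.1 and 33.4 RPKM in KO1 to KO4 and 32.5, 29.4, 30.5 and 32.8 RPKM in WT1 to WT4. The genotypes did not overlap at this scaling, with a log2 ratio of the means of 0.10 and an exact permutation p of 0.0286, the smallest possible, which became 0.0857 after adjustment over the 3 sums. With the α and β sums as they were, the adjusted value could not be lower in this design, so this test could not decide on the γ sum. With TMM scaling in place of library totals the genotypes overlapped (32.5 to 33.5 in KO, 30.5 to 33.4 in WT), the log2 ratio was 0.06 and the exact p was 0.0857, or 0.257 adjusted. The sign was the same at both scalings, which rest on the same counts. The separation at library totals also depended on the length assigned to a gene. With the longest coding transcript Prkag2 and Prkag1 stood at 33.1 and 16.2 RPKM in KO3 and at 34.8 and 14.7 RPKM in WT1. The γ sum of KO3 thus lay below that of WT1, and the genotypes overlapped. The sums were chosen after values were seen, and the exact test was not run with that length. The α sum ranged from 15.5 to 20.1 RPKM in KO and from 15.3 to 20.5 in WT (exact p = 0.8), and the β sum from 19.4 to 24.5 in KO and from 19.4 to 23.4 in WT (exact p = 0.914).

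Each subunit gene had other genes with nearly the same profile over the libraries. By Pearson r of log2(CPM + 1) over 8 libraries, the genes most like Prkaa1 were Rod1 (0.997), Zfp148 (0.992) and Vps26a (0.991), and over the 6 libraries without KO1 and WT1 their r was 0.986, 0.966 and 0.968. For Prkaa2 they were Gsk3b (0.985), Tmod2 (0.984) and Gucy1b3 (0.983), and for Prkab1 they were Zfp212 (0.991), Pecr (0.984) and Rpsa (0.983), whose r over the 6 libraries was 0.923, 0.930 and 0.851. For Prkab2 they were Clmn (0.956), Osbpl6 (0.941) and Prrg4 (0.940), for Prkag1 Rilp (0.970), Dscr3 (0.970) and Zfp954 (0.959), and for Prkag2 Zfp808 (0.983), the unnamed gene ENSMUSG00000097755 (0.972) and Fam78b (0.968). These are the highest of 16272 correlations for each gene, over libraries of which KO1 and WT1 stand apart, and are given as a description.

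The genes around AMPK were taken from 4 lists. Of 19 upstream regulators, among them Stk11 (LKB1) and its partners, the calcium-dependent kinase Camkk2, the phosphatase Ppm1a and the sestrins, 0 passed the adjusted threshold and 0 reached an unadjusted p under 0.05 in edgeR. The estimates lay above 0 for 9 and below 0 for 10, with a median of -0.0017 on the log2 scale beside 0.014 for all genes. The 3 with the smallest p were Fnip1, a partner of folliculin (-0.11, adjusted p = 0.518), the N-myristoyltransferase Nmt1, an enzyme of the kind that lipidates β subunits (0.11, adjusted p = 0.562), and Sesn1 (0.09, adjusted p = 0.629), all from edgeR. Sesn1 stood at 0.059 without KO4, 0.147 without KO1 and 0.148 without WT1. With DESeq2 and with limma-voom 0 of the 19 passed.

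Of 28 direct substrates of AMPK, 0 passed the adjusted threshold in edgeR, while 6 reached an unadjusted p under 0.05, 2 higher (4.71% of all genes were) and 4 lower in KO (5.78% of all genes were). Acaca, the acetyl-CoA carboxylase that starts fatty acid synthesis, stood at 93.4, 120.0, 109.5 and 113 CPM in KO1 to KO4 and at 126, 124, 155 and 124 CPM in WT1 to WT4. Every KO library lay below every WT library, and genotypes that do not overlap, in either direction, were seen for 2.4% of all genes. Acaca had a log2 fold change of -0.31 (SE 0.0792) with an adjusted p of 0.287 in edgeR. DESeq2 called it (adjusted p = 0.0498) where edgeR did not, and over all alternatives its adjusted p ran from 0.0498 to 0.999957. Srebf2, a transcription factor of lipid synthesis genes, had a log2 fold change of -0.29 (adjusted p = 0.377 in edgeR). With strain label as a term and no surrogate variable the values were -0.15 for Acaca and -0.05 for Srebf2. Only BK held both genotypes, so that fit estimated genotype from KO4 against WT2 and WT4 alone. Acaca stood at -0.47 on lane A and -0.18 on lane B, also without the surrogate variable. The median of the 28 was 0.02. Substrates are phosphorylated by AMPK, and their transcript levels are not a measure of its activity.

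In the list of adenine nucleotide and AICAR metabolism, which covers the enzymes that set AMP and handle the AMPK activator AICAR, 0 of 16 passed the adjusted threshold in edgeR and 0 reached an unadjusted p under 0.05. The 3 with the smallest p were the nucleoside transporter Slc29a1 (log2 fold change -0.29, adjusted p = 0.564), the AICAR-consuming enzyme Atic (-0.13, adjusted p = 0.587) and the adenylate kinase Ak1 (0.12, adjusted p = 0.631). Single libraries moved these values: without WT3 they were -0.095, -0.066 and 0.22, and without WT2 they were -0.44, -0.19 and 0.076. Of 18 downstream regulators and targets 17 were tested, as Ucp3 was too low, and 0 passed in edgeR or reached an unadjusted p under 0.05. Those with the smallest p were Ucp2 (1.38, adjusted p = 0.497, at 1.23 CPM on average in KO and 0.534 in WT), the glucose transporter Slc2a1 (-0.23, adjusted p = 0.538) and the coactivator Ppargc1b (-0.32, adjusted p = 0.617). Ppargc1b stood at -0.15 without WT3 and -0.19 without KO4, Slc2a1 at -0.15 without WT4, and Ucp2 ran from 0.971 without KO3 to 2.05 without WT4. DESeq2 placed 0 of the 16 and 1 of the 17 at an unadjusted p under 0.05, and limma-voom placed none, where 1551 and 1704 of all 16272 genes reached that p. Neither tool called any gene of these lists, but DESeq2 gave Ucp2 (unadjusted p = 0.0170) no adjusted p, so it could not be called there.

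**Figure D5:**
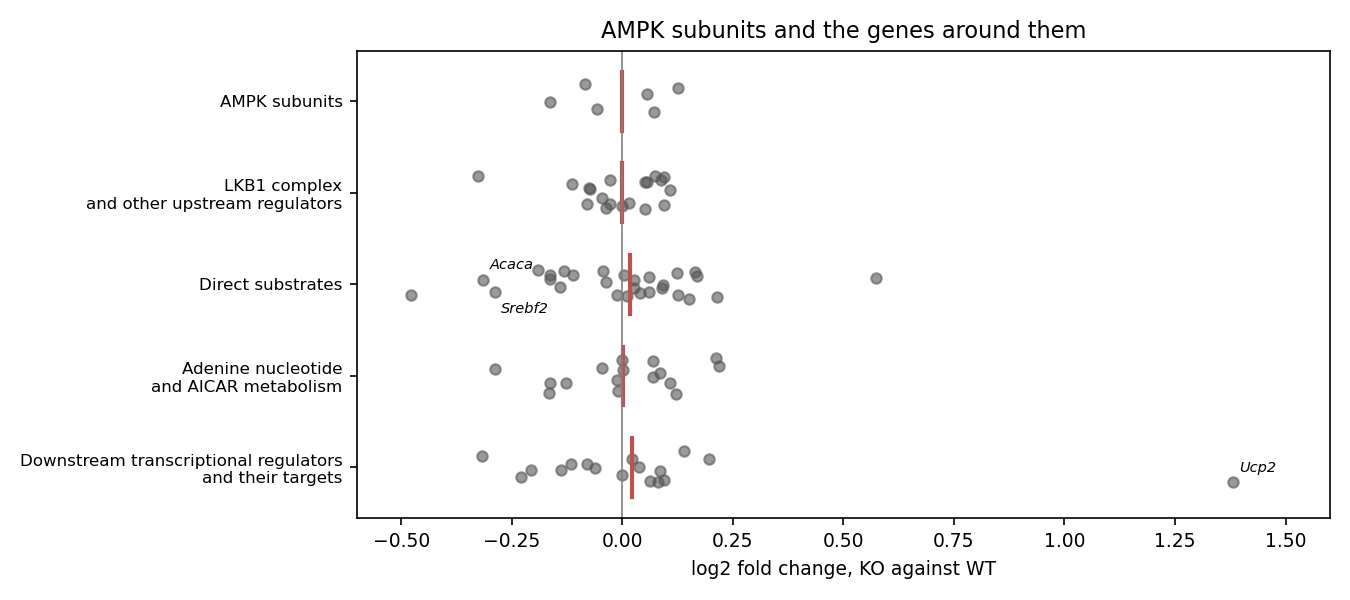
Log2 fold change of KO against WT for the 6 tested AMPK subunits and the tested genes of 4 lists around them (dots), with the median of each list as a red line. The medians lie near 0, and Acaca, Srebf2 and Ucp2 are named as genes with a smallest p in their lists.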

How the data were processed

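The authors trimmed reads with cutadapt 1.10, discarded ribosomal RNA reads, aligned the rest to mm10 with STAR 2.5.3a and counted uniquely aligned reads per Ensembl gene with HTSeq 0.6.1p1 in union mode. The deposited values are these raw counts, one column per library. The labels and the methods disagree on read length and layout.

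The genotype test used edgeR 4.0.16 under R 4.3.3 (filterByExpr by genotype, TMM, robust quasi-likelihood F test, Benjamini-Hochberg adjustment over 16272 genes, threshold 0.05) with 1 surrogate variable from sva 3.50.0. The standard error is the absolute log2 fold change over the square root of F. Isoform ratios were compared by exact permutation over libraries. Exon lengths and coding sequences came from GENCODE transcripts of NCBIM37, gene positions from RefSeq on GRCm38, and blastn 2.17.0 searched for shared places. CPM are scaled by library totals (31247078 to 67155004). The floor of 3 counts covers counting error only, whereas the intervals printed rest on the spread between libraries.

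The members and lists were chosen with earlier results of these data known. Named genes were the 7 members, Nuak1, the 3 smallest p of each list and the 3 genes most like each member, and 1 gene under this rule is not reported here. Alternatives covered the surrogate variables, lane, strain label, replicate block, size factors, filters, DESeq2 1.42.0, limma-voom (limma 3.58.1) and each library left out. The procedure was tested on simulated data.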

Additional observations from a re-analysis of the deposited data

How the results depend on the processing

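Across 21 alternatives, 0 of the 6 members passed the adjusted threshold, as in the reported fit. Prkaa1, Prkag1 and Prkag2 kept their sign in all 21, Prkab1 and Prkab2 in 20 and Prkaa2 in 17. Prkaa2 turned to 0.0084 with 2 surrogate variables, 0.13 with strain label as a term, and 0.031 on lane B, where Prkab1 turned to -0.025 and Prkab2 to 0.15. Over single libraries left out, the log2 fold changes ran from -0.077 to -0.022 for Prkaa1, -0.27 to 0.028 for Prkaa2, 0.044 to 0.20 for Prkab1, -0.17 to -0.014 for Prkab2, 0.030 to 0.098 for Prkag1 and 0.044 to 0.10 for Prkag2, and the log2 isoform ratios from -0.031 to 0.19 for α, -0.012 to 0.32 for β and -0.085 to 0.043 for γ (0.025 without KO1). On lane B the ratios were -0.056 for α and -0.17 for β. The fits by lane and by strain label had no surrogate variable. The strain label fit estimated genotype from KO4 against WT2 and WT4 alone, since only BK held both genotypes. With strain label as a term the upstream regulators had a median of 0.059, Slc29a1 stood at 0.083, Atic at 0.0040, Ucp2 at -0.25, Acaca at -0.15 and Srebf2 at -0.047, and on single lanes Slc29a1 stood at 0.026 (B) and Ak1 at -0.070 (A). Called substrates numbered 2 of 28 with DESeq2 (1.01% of all genes were called) and 1 of 28 without a filter on low counts (0.157%). With the longest coding transcript, chosen after seeing the data, Prkab1 made up 36.2% and Prkag1 32.4% of their subunits. Calls over all genes numbered 8, and 165 with DESeq2, 114 without WT3, 99 on lane B, 49 without the filter and 0 on lane A, with 96 at an unadjusted p under 0.05 there. Deviations of same-numbered libraries correlated at 0.894 for KO1 and WT1, the libraries that stood apart. For replicates 2, 3 and 4 they correlated at 0.0847, 0.372 and 0.160, so those numbers did not pair the libraries. The replicate block left 3 calls and gave -0.05, -0.09, 0.12, -0.11, 0.04 and 0.08 for the members in the order above, with adjusted p of 0.697 to 0.879. The causes of these shifts were not tested. Low counts kept Prkag3 and Ucp3 out of the test.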
